A study of Mus musculus with 2 samples.

Results

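The 10 genes described here encode glycoproteins and adhesion receptors of the platelet surface: Gp1ba, Gp1bb, Gp9, Gp5, Gp6, Clec1b, Itga2b, Itgb3, Selp and Treml1. They were chosen by symbol, as every probe whose gene name in the scanner files was 1 of these 10, which gave 15 of 39421 probes and 10 of 30163 named genes. The rule uses names and no measured value, although the list was drawn up with earlier results of these data known. Expression was measured on 1-colour mouse arrays with 1 array per group. The NYT group was bone marrow mononuclear cells (BM MNCs) of C57/Bl6J mice cultured with ninjin'yoeito (NYT), a herbal drug, and the control group was the same kind of cells left without treatment as a negative control. Both were collected at day 11. Per the labels' protocols, the cells of both groups came from femurs of mice aged 2 to 4 months, flushed with IMDM holding 2% fetal bovine serum. No source used here gives the dose of NYT, the number of animals or whether both cultures came from the same mice. Both arrays lay on 1 slide.

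Platelets are cell fragments shed by megakaryocytes, large polyploid cells of the bone marrow that switch on these receptors as they mature. The GPIb-IX-V complex catches von Willebrand factor on damaged vessel walls, GPVI and CLEC-2 signal through ITAM motifs once they bind collagen or podoplanin, and integrin αIIbβ3 binds fibrinogen and joins platelets to each other. P-selectin and TLT-1 wait in the alpha granules and reach the surface when the platelet is activated. A culture of bone marrow mononuclear cells holds many cell types, so a signal here is that of the mixture, and fewer megakaryocytes and less receptor RNA per megakaryocyte cannot be told apart.

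On the NYT array 9 of the 10 receptor genes were at least 2-fold lower than on the control array, from 6.03-fold for Clec1b to 25.6-fold for Selp. The exception was Itgb3, the integrin chain β3, which differed by -0.02 on the log2 scale. All 10 genes were measured on both arrays. Of all 16996 genes measured on both arrays, 11.0% were at least 2-fold lower in NYT and 11.2% at least 2-fold higher. At 3-fold the same 9 receptor genes were lower, against 6.87% of all genes, and at 8-fold 8 of the 10, against 2.79% of all genes. The median difference of the 10 genes was -4.19, against 0.29 for all measured genes. Differences are log2 processed signal, NYT minus control, after each array was scaled to its own 75th percentile.

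With 1 array per group there is no spread between cultures, no test and no p-value. The ± given with a difference is the error that the scanner software's own error model assigns to the spots, combined over both arrays, and it covers neither cultures nor hybridisations. Unscaled, the 75th percentile of signal was 728 on the NYT array and 1476 on the control array, a ratio of 2.03. That scaling sets how many genes count as lower or higher: 1868 were lower and 1908 higher as scaled, 6190 and 211 without scaling (36.4% lower), 2378 and 944 after loess, and 7485 and 166 when scaled to spike-in RNA (44.0% lower). The median of all genes moved with it: it was -0.73 unscaled, -0.02 with loess and -0.89 with spike-in RNA as the standard. The labelled cells carried leukocyte genes on both arrays: all 10 of a pan-leukocyte list were measured, with a median difference of 0.0028. That list median also moved with the scaling: it was -0.51 after quantile normalization, -0.54 after loess, -1.02 unscaled and -1.18 with spike-in scaling. In that list 1 gene was at least 2-fold lower, Coro1a, an actin regulator of leukocytes, at -1.15. Ptprc, the leukocyte surface phosphatase CD45, stood at -0.95 and Laptm5 at 0.91.

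**Figure D1:**
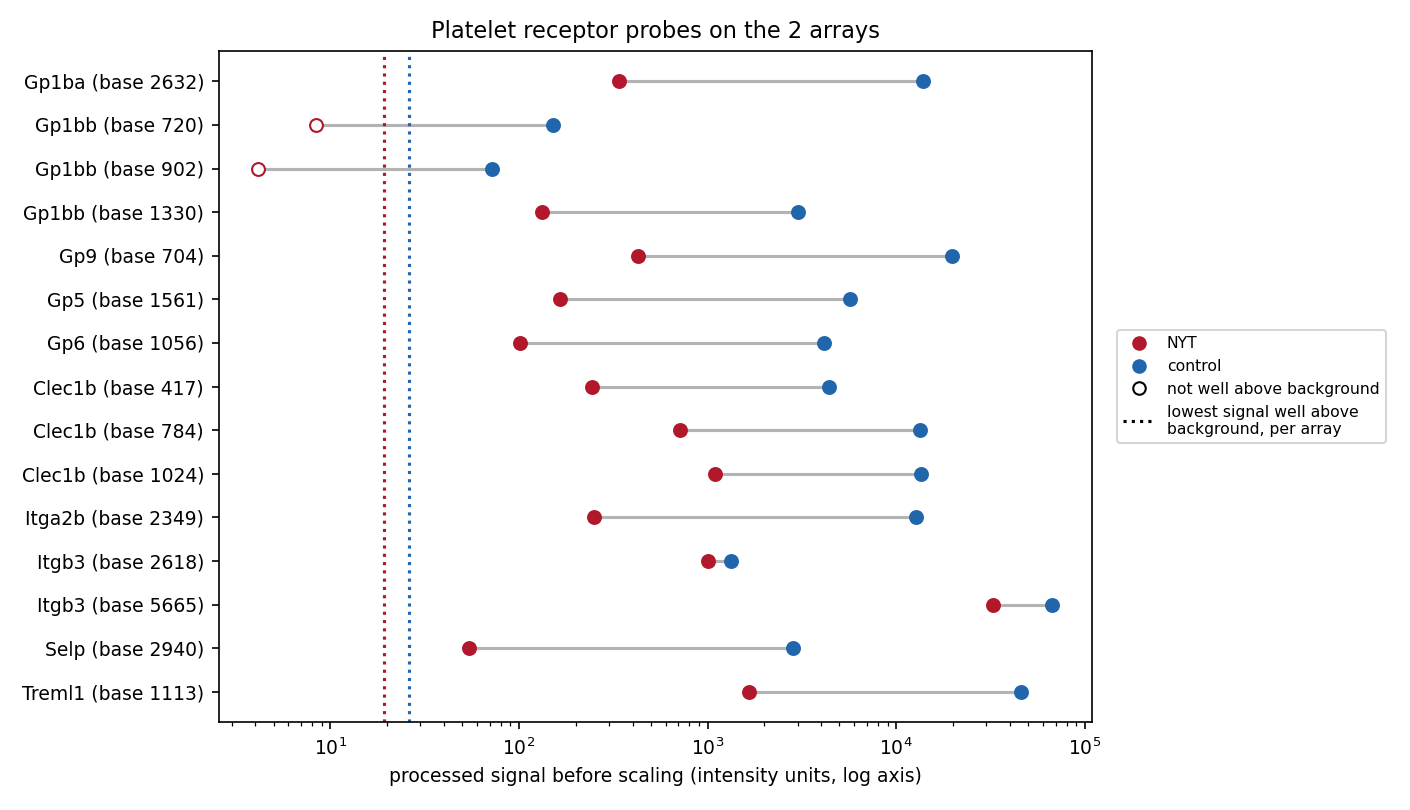
Processed signal before scaling (x axis, intensity units, log axis) of each of the 15 probes of the 10 receptor genes (rows, with the base of the transcript at which the probe starts), on the NYT array (red) and the control array (blue). Open circles are signals not well above background and dotted lines the lowest signal that was, 19.2 on the NYT array and 26.0 on the control array. The Itgb3 probes have the closest pairs of points.

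The GPIb-IX-V complex is built from 4 membrane proteins with leucine-rich repeats, and all 4 of its genes were lower on the NYT array. Gp1ba encodes the chain that binds von Willebrand factor. Its probe, at chr11:70455461-70455520 on the plus strand (mm9), gave a signal of 341 on the NYT array and 13778 on the control array, a difference of -4.32 ± 0.20 after scaling, or 19.9-fold. Gp9, the small chain GPIX that holds the complex together, gave 428 on the NYT array and 19623 on the control array, a difference of -4.50 ± 0.20 (22.6-fold). The difference of Gp1ba minus that of Gp9 was 0.18 ± 0.29, within the error. Gp5, the chain that sits at the rim of the complex and is cut by thrombin, gave 166 on the NYT array and 5653 on the control array. Its difference was -4.07 ± 0.21, or 16.8-fold.

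Gp1bb encodes the chain joined to Gp1ba by disulfide bonds and had 3 probes. The brightest gave 132 on the NYT array and 3017 on the control array, a difference of -3.50 ± 0.21 (11.3-fold). The others were well above background on the control array alone, with 8.43 on the NYT array against 152 on the control array, and 4.15 against 71.6. A bound sets the control signal against the lowest signal that counts as well above background on the NYT array, and it was at least 3.92-fold lower in NYT for the first and at least 1.84-fold for the second. Gp1bb was lower by its measured probe and, at 2-fold, by 1 of its bounds. The difference of Gp1ba minus that of Gp1bb was -0.82 ± 0.29. It compares 1 probe of each gene, and the ± covers the spots alone, so it does not rank the genes. The measured probe, at chr16:18621107-18621166 on the minus strand (mm9), is shown because the Gp1bb value rests on it, and it has a GC content of 80.0%.
Gp1bb probe: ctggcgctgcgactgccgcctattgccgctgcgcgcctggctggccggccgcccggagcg

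Because the 4 GPIb-IX-V genes were all lower, the sequences upstream of the receptor genes were searched for words bound by GATA and ETS factors, the families of the megakaryocyte regulators Gata1 and Fli1. The words were GATAA for GATA and AGGAAG or CGGAAG for ETS, on both strands, in windows of 300 bases around RefSeq gene starts (250 before and 50 after, GRCm38.p6). A GATA and an ETS word can overlap. Of the 10 genes 9 had a window, Itgb3 being the other. GATAA was in 5 of the 9 windows (55.6%) and in 25.4% of all 32851 windows. An ETS word was in 6 of the 9 (66.7%) and in 46.5% of all, and both were in 3 of the 9 (33.3%) and in 10.8% of all. The 3 windows with both were those of Gp1ba, Gp9 and Gp5, so their 250 bases before the start are printed here, 5′ to 3′, with the matched words in capitals. The windows are chr11:70638872-70639121 on the plus strand for Gp1ba, chr6:87777820-87778069 on the plus strand for Gp9 and chr16:30310782-30311031 on the minus strand for Gp5.
Gp1ba: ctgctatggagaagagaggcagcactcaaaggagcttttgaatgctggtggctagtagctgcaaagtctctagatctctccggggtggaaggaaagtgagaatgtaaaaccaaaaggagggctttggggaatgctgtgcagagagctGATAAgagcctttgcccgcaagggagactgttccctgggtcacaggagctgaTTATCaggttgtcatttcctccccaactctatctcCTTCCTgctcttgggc
Gp9: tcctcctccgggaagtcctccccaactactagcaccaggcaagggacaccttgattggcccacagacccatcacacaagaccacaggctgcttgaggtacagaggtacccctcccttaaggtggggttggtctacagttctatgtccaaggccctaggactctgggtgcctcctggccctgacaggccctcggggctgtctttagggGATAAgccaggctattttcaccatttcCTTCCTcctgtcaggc
Gp5: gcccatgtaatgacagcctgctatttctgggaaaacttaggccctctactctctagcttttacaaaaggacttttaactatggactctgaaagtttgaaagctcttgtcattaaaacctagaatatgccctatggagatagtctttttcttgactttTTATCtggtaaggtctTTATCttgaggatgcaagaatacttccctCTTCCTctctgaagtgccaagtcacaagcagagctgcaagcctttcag
An ETS word began 16 bases before the start in both Gp1ba and Gp9, counted from the base next to the start. Counted the same way, the GATA words began 51 and 103 bases before the start in Gp1ba and 43 bases before the start in Gp9. In Gp5 the ETS word lay 48 bases before the start and the GATA words 77 and 93. A matched word describes the sequence and is not a measured binding site. The Gp1bb window held an ETS word 90 bases before the start and no GATAA.

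Gp6 and Clec1b, the receptors for collagen and podoplanin, were both lower, and neither the adaptor gene of the first nor the ligand gene of the second was. The single Gp6 probe, at chr7:4320351-4320410 on the minus strand (mm9), gave 101 on the NYT array and 4137 on the control array, a difference of -4.33 ± 0.21 (20.1-fold). GPVI has no ITAM motif of its own and works through the Fc receptor gamma chain, encoded by Fcer1g. That chain is shared with macrophages, mast cells and other leukocytes, and Fcer1g gave 109550 on the NYT array and 148567 on the control array, a difference of 0.58 ± 0.20. The difference of Gp6 minus that of Fcer1g was -4.91 ± 0.30, and between -4.91 and -4.24 under the 10 other settings.

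Clec1b, which encodes CLEC-2, was measured by 3 probes along its transcript. They gave 1101, 709 and 243 on the NYT array, against 13454, 13421 and 4404 on the control array. After scaling the differences were -2.59, -3.22 and -3.16, each ± 0.20 or ± 0.21. All 3 probes were thus lower by 6.03-fold to 9.33-fold, which made Clec1b the least lowered of the 9 lower genes. The 2 probes nearer the 5′ end are shown because they set the larger differences, the first starting at base 417 of the transcript (chr6:129350113-129350172, plus strand, mm9) and the second at base 784 (chr6:129353604-129353663, plus strand, mm9).
Clec1b base 417: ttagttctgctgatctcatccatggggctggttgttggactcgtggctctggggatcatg
Clec1b base 784: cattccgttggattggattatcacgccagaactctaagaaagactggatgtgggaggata
Pdpn, the CLEC-2 ligand podoplanin, was higher, with 8125 on the NYT array and 3193 on the control array, a difference of 2.37 ± 0.20 (5.16-fold), and 2.30 by its other probe. The difference of receptor minus that of ligand was -4.96 ± 0.29, a value that no constant scaling of an array can change.

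The chains of integrin αIIbβ3 differed. Itga2b encodes αIIb, the chain that makes this integrin specific to megakaryocytes and platelets, although early progenitors and mast cells carry it too. Its probe gave 249 on the NYT array and 12652 on the control array, a difference of -4.65 ± 0.21 (25.03-fold). Itgb3 encodes β3, which also pairs with αv on osteoclasts, macrophages and endothelium. Its brighter probe gave 32434 on the NYT array and 66831 on the control array, a difference of -0.02 ± 0.20, and the other probe gave 1004 on the NYT array and 1327 on the control array, a difference of 0.62 ± 0.20. The difference of Itga2b minus that of Itgb3 was -4.62 ± 0.29, or 24.6-fold, and between -4.94 and -4.19 under the 10 other settings.

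How far Itgb3 itself differed depends on the scaling. It stood at -1.04 without scaling and -1.20 with spike-in scaling, both past 2-fold lower, at -0.49 after quantile normalization, and at 0.30 as the mean of its 2 probes. Itgav, the alternative partner αv, gave 504 on the NYT array and 733 on the control array, a difference of 0.48 ± 0.20, and 1.47 by its other probe. The difference of Itgb3 minus that of Itgav was -0.50 ± 0.29. The Itga2b probe is shown because it carries this contrast. Its 60 bases lie between 102319453 and 102319661 on the minus strand of chromosome 11 (mm9), a span of more than 60 bases, so it crosses at least 1 intron.
Itga2b probe: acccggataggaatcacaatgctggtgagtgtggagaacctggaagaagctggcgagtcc
The Itga2b window upstream of the start, chr11:102469884-102470133 on the minus strand (GRCm38.p6), held AGGAAG 43 and 125 bases before the start and no GATAA.
Itga2b upstream: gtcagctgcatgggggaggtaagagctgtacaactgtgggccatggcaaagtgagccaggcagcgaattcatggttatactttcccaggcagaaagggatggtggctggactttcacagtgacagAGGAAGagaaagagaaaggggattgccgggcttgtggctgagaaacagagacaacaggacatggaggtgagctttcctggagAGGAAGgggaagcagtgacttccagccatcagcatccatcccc

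Selp and Treml1, whose proteins are stored in alpha granules, were lower too. Selp encodes P-selectin, which tethers leukocytes, and endothelium stores it as well. It had the only probe printed in 10 spots, with 10 usable spots on the NYT array and 8 on the control array after outlier flags. Before scaling the NYT spots ranged from 46.3 to 59.98 and the control spots from 2758 to 2946. They are repeat spots of 1 probe on 1 array per group, so their spread is spot noise and not a spread between cultures. The mean signals were 54.6 on the NYT array and 2838 on the control array, a difference of -4.68 ± 0.23 (25.6-fold). The SD among spots on the log2 scale was 0.12 on the NYT array and 0.028 on the control array. With normexp background correction, which lifts dim signals, the Selp difference was -3.56, and 8.10% of all genes were at least 2-fold lower. Selplg, the P-selectin ligand PSGL-1 of leukocytes, gave 9389 on the NYT array and 26817 on the control array, a difference of -0.49 ± 0.20.

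Treml1 encodes TLT-1, a fibrinogen-binding receptor of the TREM family found on platelets and megakaryocytes. Its probe, at chr17:48506365-48506424 on the plus strand (mm9), gave 1654 on the NYT array and 45958 on the control array, a difference of -3.78 ± 0.20 (13.7-fold). The Treml1 window held none of the words searched.

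**Figure D2:**
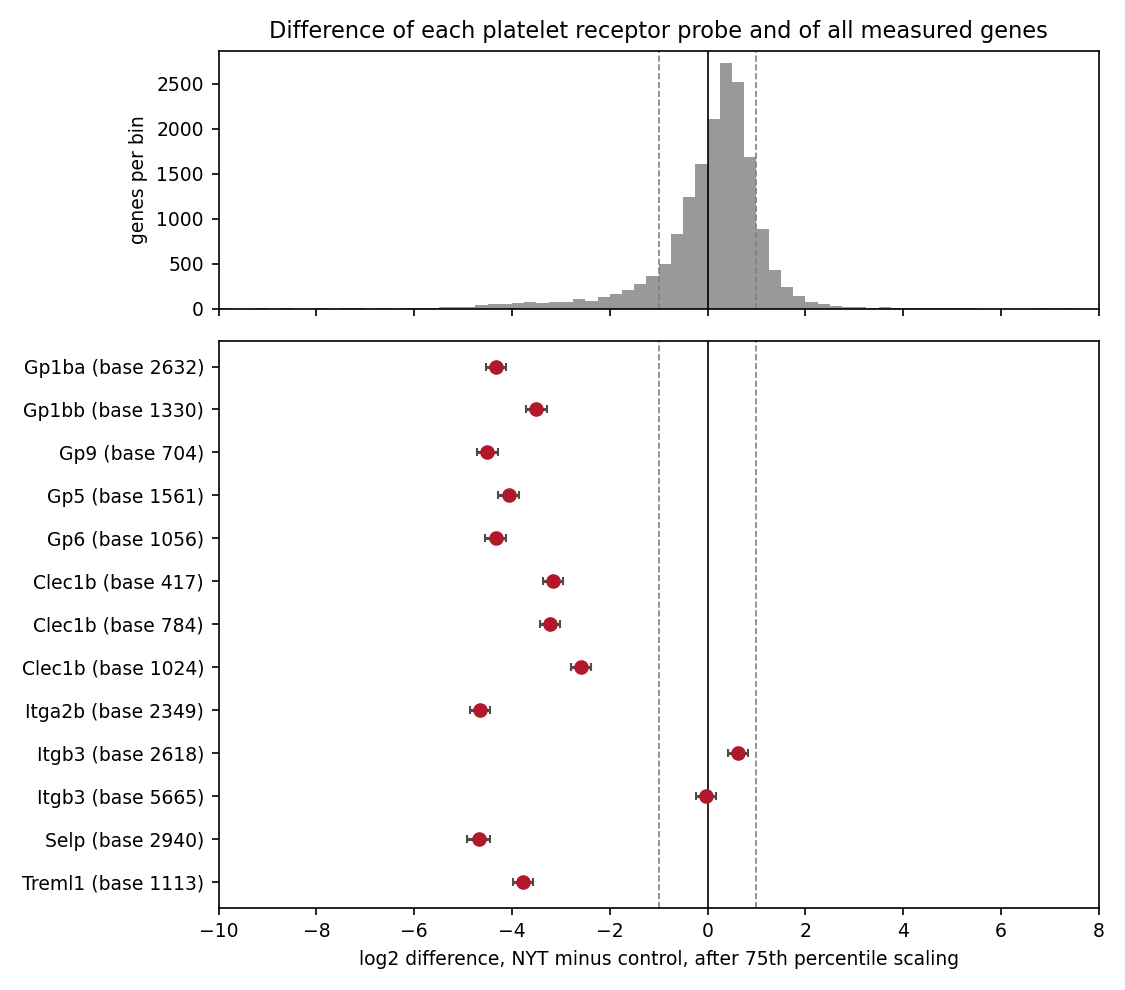
Log2 difference, NYT minus control, after 75th percentile scaling (x axis). Top, all 16996 measured genes in bins of 0.25; bottom, the 13 receptor probes measured on both arrays, with error bars from the scanner's error model and dashed lines at 2-fold. Only the Itgb3 probes lie inside the dashed lines.

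Ranked among all measured genes, the differences of Selp, Itga2b, Gp9, Gp6 and Gp1ba lay at percentiles 0.49, 0.52, 0.68, 0.87 and 0.89, where the lowest difference has the lowest percentile. Gp5 lay at percentile 1.14, Treml1 at 1.51, Gp1bb at 2.00 and Clec1b at 3.61. Itgb3 lay at percentile 34.4. The middle 50% of all genes ran from -0.28 to 0.68.

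The 7 lists of partner genes differed in how many of their members were lower, and they are read against the 11.0% of measured genes that were lower and the 11.2% that were higher. Of the other platelet surface receptors, 17 of 24 were measured on both arrays, 10 of them lower and 2 higher, with a median of -1.99. F2r, a thrombin receptor, differed by -4.28 and Pear1, which senses contact between platelets, by -3.59. The remaining 7 were well above background on the control array alone, as were 9.56% of all genes detected on at least 1 array, and 6 of these had a bound of at least 2-fold. Measured or by a bound, 16 of the 24 were lower, against 13.4% of all genes detected on at least 1 array. By that bound F2rl3, the thrombin receptor PAR4, was at least 20.6-fold lower in NYT and Cd226, an adhesion receptor, at least 19.2-fold. Itga2, the collagen-binding chain α2, had a bound of at least 1.80-fold, while its partner Itgb1 stood at 0.97 and, by another probe, at 2.32.

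The ITAM adaptor and signalling list had a median of -0.51, with 3 of 15 genes lower and 1 higher. Its lower genes were Grap2, an adaptor that binds Lcp2, at -2.94, Fyn, a Src family kinase, at -1.15, and Lat, a scaffold named after its value was seen, at -1.07, and the higher one was Src at 1.44. The integrin activation list had a median of -0.61, with 3 of 12 lower and none higher. Vcl, which links integrins to actin, had probes at -1.70 and -0.08, the first the brighter. Flna, a filamin that anchors GPIb, stood at -1.01, Rasgrp2, which activates Rap1, at -1.01, and Fermt3, the kindlin that switches on blood cell integrins, at -0.82. The list of sheddases that cut these receptors, with the tetraspanins that guide them, had a median of 0.18 and 1 of 11 genes lower, Tspan33 at -2.91. In that list Rhbdf2 stood at -0.62 and Tspan5 at 0.59.

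Of the ligand genes, 9 of 14 were measured, 7 lower and 1, Pdpn, higher, with a median of -3.17. Vwf, the GPIb ligand made by megakaryocytes and endothelium, had probes that disagreed, the brighter at -3.17 and the dimmer at -0.48. Col1a1 and Col1a2, collagens of stromal cells, stood at -5.33 and -4.39, and Mmrn1, a platelet granule protein, at -4.52. Fga, Fgb and Fgg, which encode fibrinogen in the liver, were not well above background on either array. The megakaryocyte transcription factor list had a median of -1.21, with 8 of 15 lower. Gata1 stood at -3.86, Gata2 at -5.18, Gfi1b, a repressor of the same lineage, at -3.78 and Nfe2, which drives platelet release, at -3.45. Fli1, an ETS factor, stood at -0.84. Ets1, another ETS factor of the list and named after its value was seen, stood at -2.21 and, by its other probe, at -3.30. Of the granule and cytoskeleton list 12 of 13 measured genes were lower, with a median of -3.17. The granule chemokines Ppbp and Pf4 stood at -4.16 and -2.73 and the clotting factor F5 at -4.22, while Tubb1, a tubulin of platelets, was at least 9.43-fold lower. The ligand and granule lists share Thbs1, Vwf and Mmrn1.

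**Figure D3:**
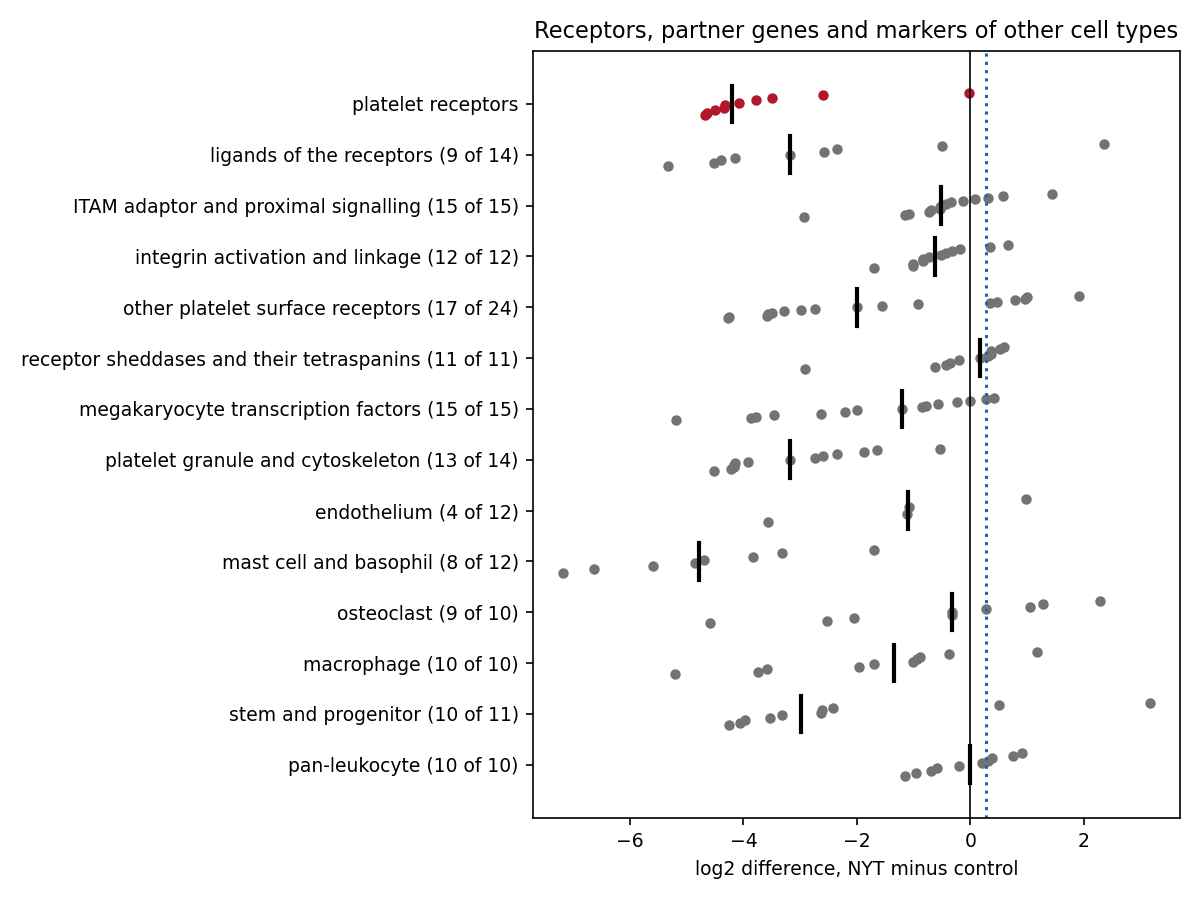
Log2 difference, NYT minus control (x axis), of each gene measured on both arrays (points), for the receptors (red), the partner lists and the lists of other cell types (grey, with measured of listed genes). Black bars are list medians and the dotted line is the median of all genes, 0.29. The platelet receptors and the granule list lie to the left and, under 75th percentile scaling, the pan-leukocyte list lies near 0.

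Cells other than megakaryocytes can carry some of these genes, and their markers are given beside them. The counts of all these cell type lists are read against the shares over all genes. Summed signals are given before scaling, where the 75th percentile of the control array was 2.03 times that of the NYT array. A ratio of sums, control to NYT, is read against that 2.03. Of the genes measured on both arrays 11.0% were lower and 11.2% higher. Of those detected on at least 1 array, 9.56% were detected on the control array alone. Of 12 mast cell and basophil genes, 8 were measured and all 8 were lower, with a median of -4.77, and 3 more were detected on the control array alone. Cpa3, Mcpt8 and Hdc stood at -7.18, -6.63 and -5.59, Fcer1a was at least 108-fold lower and Mcpt4 at least 6.41-fold lower. Summed signal before scaling was 1147 on the NYT array and 82845 on the control array, and Tpsab1 did not clear background on either. Of 11 stem and progenitor genes 10 were measured, 8 lower and 1 higher, with a median of -2.97. The summed signals of this list were 23439 on the NYT array and 71152 on the control array, a ratio of 3.04. The higher gene was Procr, a receptor for protein C found on stem cells and endothelium. It gave 18488 on the NYT array and 4144 on the control array, a difference of 3.18 (9.04-fold). Without Procr, the brightest gene of this list on the NYT array, the sums before scaling were 4951 on the NYT array and 67008 on the control array. Their ratio was 13.5, and the choice of the gene left out raises it. Angpt1 stood at -4.05 and Slamf1 at -3.96, and Mecom did not clear background on either array. Both lists bear on Itga2b, and their part in its difference was not tested.

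Endothelial markers were mixed in level. Of 12 genes 4 were measured on both arrays, 3 of them lower. Another 6 cleared background only on the control array, and of these Tie1 and Robo4 alone had a bound of at least 2-fold. Cdh5 and Tek, with bounds of 1.51-fold and 1.07-fold, were dim on the control array, at 58.8 and 41.5. The lowest detected signal there was 26.0, so these bounds do not show a 2-fold difference. Summed signals before scaling were 6850 on the NYT array and 12080 on the control array. Their ratio of 1.76 was below the 2.03 of the 75th percentiles, so after scaling the sum was not lower in NYT. Kdr, a VEGF receptor, made up most of the first sum, with 6279 on the NYT array and 6453 on the control array, a difference of 0.98. Without Kdr, the brightest gene of this list on the NYT array, the sums before scaling were 571 on the NYT array and 5628 on the control array. Their ratio was 9.86, again raised by the choice of the gene left out. Stab2 stood at -3.57, Egfl7 at -1.11, and the 2 probes of Plvap at -1.07 and 0.64, while Tie1 and Robo4 were at least 11.7-fold and 4.94-fold lower. Cldn5 and Sox17 were not well above background on either array. Their part in the differences of Selp and Vwf was not tested.

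Markers of cells that carry Itgb3 with αv included lower and higher genes. Of 10 osteoclast genes 9 were measured, 3 lower and 3 higher, with a median of -0.32. Summed signals before scaling were 43661 on the NYT array and 118464 on the control array, a ratio of 2.71, against 2.03 for the 75th percentiles. Without Atp6v0d2 the sums were 22564 on the NYT array and 100903 on the control array. Ctsk stood at 2.29, Dcstamp at -2.52 and Mmp9 at -4.58, and Calcr was detected on the NYT array alone, at least 2.11-fold higher. All 10 macrophage genes were measured, 6 lower and 1 higher, with a median of -1.35. Their summed signals before scaling were 208941 on the NYT array and 607875 on the control array, a ratio of 2.91. Without Cd68, the one that was higher, the sums were 79929 on the NYT array and 492484 on the control array. Procr, Kdr, Atp6v0d2 and Cd68 were singled out after their values were seen, each as the brightest gene of its list on the NYT array. Leaving out such a gene tends to raise the ratio of control to NYT. C1qa, C1qb and C1qc stood at -5.21, -3.74 and -3.58. Their part in the Itgb3 value was not tested.

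The 9 lower receptor genes stayed at least 2-fold lower under each of the 10 other settings of scaling, background, source, filter, probe choice and detection flag. The nearest to 0 under any of them were -2.58 for Clec1b and -2.98 for Gp1bb. Keeping dim probes and using the other detection flag left all 10 receptor values exactly as they were. The mean over probes changed Clec1b and Itgb3 alone. For the unchanged values these settings were no further check. In the authors' deposited value table Clec1b differed by -2.69 and Itga2b by -4.66, each as log2 of their normalized intensities.

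**Figure D4:**
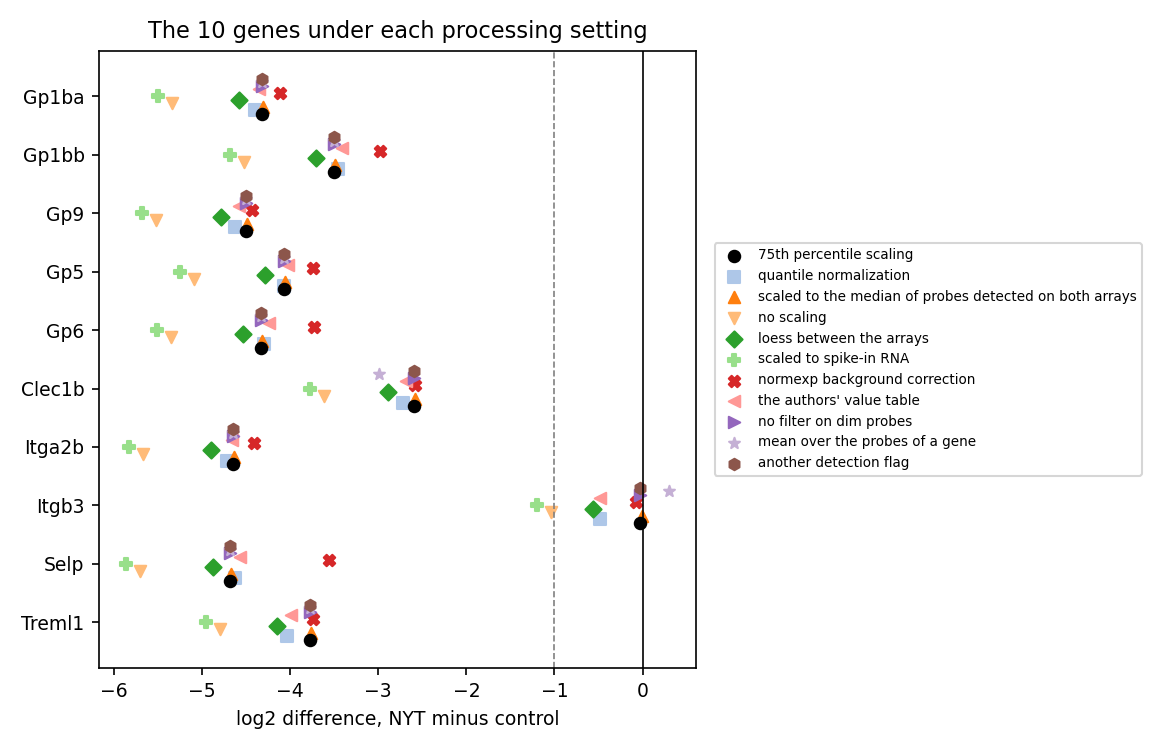
Log2 difference, NYT minus control (x axis), of the 10 receptor genes under 75th percentile scaling (black) and 10 other settings (colours), with the dashed line at 2-fold lower. For 9 genes every point lies left of the dashed line, and Itgb3 spans -1.20 to 0.30.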

How the data were processed

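The deposited intensity of each spot is output of Agilent Feature Extraction, version 10.7.1.1 per the file headers (9.5.1.1 per the submitters' processing notes), detrended within the array and with no scaling between arrays. An intensity table deposited by the authors, whose columns have nearly equal sorted values on a linear scale, served as an alternative: its median is 72.0 for NYT and 72.0 for control, its log2 values correlate with the scanner's at r = 0.9991 for NYT and 0.9997 for control across probes, and the method behind it is not given. The flags and control codes deposited by the authors are other values, used for filtering. Outlier spots were left out and no spot was saturated. Spots of a probe were averaged as log2 values and each array was scaled to its 75th percentile. Detection needed the flag for well above background on over 50% of a probe's spots, which held for 57.7% of probes on the NYT array and 62.2% on the control array. A gene is represented by its brightest probe measured on both arrays. A gene detected on 1 array got a bound: its bright signal over the lowest detected signal of the other array, or over its own dim signal where that was higher.

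Probes were named through RefSeq genes (GRCm38.p6), and probe coordinates are those of the files (mm9). The RNA kit is named differently in the labels and the design text. Arrays number 1 per group, which limits the precision. Across 228 probes printed 10 times, spot noise gave a difference a median SD of 0.054 on the log2 scale. The counting step was tested on simulated data. Python 3.11.15 and R 4.3.3 with limma 3.58.1 (normexp with an offset of 50, quantile, loess) were used. The members, the 13 partner and cell type lists and the rule for named genes (up to 3 measured genes of each list by size, up to 2 by bound, and 14 always named) were chosen with earlier results of these data known. Some genes that this rule or the neighbour set would name are not reported here.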

Additional observations from a re-analysis of the deposited data

Results flagged for a closer look

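Outside the gene probes, 1 spike-in RNA carried more signal on the NYT array. E1A_r60_a107 gave 380 on the NYT array and 80.0 on the control array before scaling, a log2 difference of 2.25, while the other 7 spike-ins well above background on both arrays lay between -0.12 and 0.24. Spike-in scaling here used the median of the 8, which was 0.16, so this spike-in did not set it. No group had enough arrays to look for samples that stand apart.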

How the results depend on the processing

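No paired analysis was possible because NYT and control had a single array each, and leaving out an array would leave no comparison. The median of the 10 genes was -5.21 without scaling, -5.37 with spike-in scaling, -4.41 after loess, -3.73 with normexp and -4.13 in the authors' value table. The number of genes lower was 9 or 10 of 10 under every setting run, 10 without scaling and with spike-in scaling, when 36.4% and 44.0% of all genes were, and 9 at 3-fold, when 6.87% were. All genes lower and higher numbered 6190 and 211 without scaling, 7485 and 166 with spike-in scaling, 3414 and 4755 when dim probes were kept and 1167 and 507 at 3-fold. Genes higher numbered 944 after loess and 3577 with the other detection flag. More genes entered with another filter or flag, and at 3-fold the threshold alone changed. Otherwise the cause was not tested. The differences between pairs of genes were chosen after seeing the data. Under the alternatives 46 values of single receptor genes moved by less than the spot noise and 54 by more, and no gene at least 2-fold lower changed sign. The 46 include values that did not move at all. These came from the other filter, the other flag and, for genes with a single measured probe, the mean over probes. The split of 46 and 54 is thus no measure of how stable the genes were. Near background the error model gives up to 1.43 on the log2 scale for a Gp1bb probe, and the spread between cultures was not measured.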

Other observations

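Genes next to the receptor genes on the chromosome, the 2 protein-coding genes on either side in RefSeq order, were compared with them. This set was chosen after the receptor values were seen. Of 40 neighbours 37 had a probe and 25 were measured on both arrays, 6 of them at least 2-fold lower and 4 at least 2-fold higher, with a median of 0.19, against 11.0% lower, 11.2% higher and a median of 0.29 for all genes. Trem2, a receptor of macrophages beside Treml1, stood at 1.63 where Treml1 stood at -3.78. Slc25a11, a mitochondrial carrier that borders Gp1ba, stood at 0.45, Atp13a3, beside Gp5, at 0.93 and Rab43, beside Gp9, at 0.10. Near Itga2b, Grn, which encodes progranulin, stood at 0.58 and Gpatch8 at 0.34. Beside Selp, F5 stood at -4.22, while Sele, the endothelial selectin, did not clear background on either array. Septin5, whose gene overlaps that of Gp1bb, stood at -1.24, and these probes cannot separate signal from a transcript that spans both. Beside Gp6, Ncr1, a receptor of natural killer cells, was at least 22.8-fold lower in NYT and Rdh13 stood at 1.70.

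Some receptors for soluble platelet agonists were singled out after their values were seen, so their values describe these genes and not a group. The ADP and ATP receptors P2ry1 and P2rx1 stood at -2.99 and -3.28 and P2ry12 was at least 4.29-fold lower. Tbxa2r, the thromboxane receptor, stood at -3.49 and Adra2a, an adrenaline receptor, was at least 8.74-fold lower. Ptgir, the receptor for prostacyclin, which restrains platelets and is also found on macrophages, was higher at 1.92. Cd36, a scavenger receptor shared by platelets and macrophages, stood at 1.01 after scaling, with 18982 on the NYT array and 19139 on the control array before it.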
